A study of Mus musculus with 2 samples.

Results

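The lysosomal genes described here are a fixed list of 37 genes for enzymes of the lysosome lumen, proteins of its membrane and the transcription factor Tfeb, taken by symbol from a table of 15719 named genes. The members comprised 11 peptidases, 10 glycosidases, 5 sulfatases, 4 lipid-handling proteins, 6 membrane proteins and 1 transcription factor. RNA came from superficial zone cells of articular cartilage, the flattened cells that face the joint space, of C57BL/6 mice at postnatal day 5. The WT library was made from wild-type mice and the Prg4KO library from mice lacking Prg4, which encodes lubricin, the secreted lubricant of the joint surface. In both cases cartilage of the femur ends and upper tibia was digested for 1 hour in 0.25% trypsin and for 1.5 hours in 173 U/mL of collagenase type I, and the freed cells were plated on fibronectin. The sources used here name neither the knockout allele nor the number and sex of the mice, nor how long the cells were cultured. Paired values below are given in the order WT, Prg4KO.

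Lysosomes are acidic compartments in which hydrolases take apart proteins, glycans and lipids delivered by endocytosis and autophagy. Most of the soluble enzymes reach them through a mannose 6-phosphate tag, and the transcription factor TFEB and its relatives raise many lysosomal genes together through a short promoter element. In cartilage the sulfated glycosaminoglycans of aggrecan and related proteoglycans are cleared by a chain of these glycosidases and sulfatases, and inherited loss of single enzymes of the chain causes mucopolysaccharidoses, with damage to growing cartilage and bone.

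With 1 library per genotype, differences are given without a replicate check and without a test of genotype. The totals were 21619093 expected counts for WT and 21392574 for Prg4KO. After the first 20 rows of the table the Prg4KO column was out of register with the gene names, with a correlation of log2 FPKM between the 2 libraries across genes of r = 0.96 in those rows and r = 0.0841 later. Its values were re-paired with genes by row order and effective transcript length. All 37 members were paired, with a lowest probability of 0.999, and in 35 of them the rows on both sides had the same shift. The exceptions were Hexa and Tfeb, whose effective lengths in Prg4KO were within 0.003% and 0.006% of those from the deposited gene length. Effective length was itself used in the pairing, so such a match is no separate check. The largest difference among the members was 4.66%, for Gusb. Prg4 itself had 54559 counts in WT and 6.15 in Prg4KO, at a pairing probability of 0.999. The defining chondrocyte gene Col2a1 had the highest FPKM of the WT library. Of 10 superficial zone markers, Prg4 included, 9 were lower in the Prg4KO library (median log2 ratio -0.51), and 8 of 9 paired chondrocyte markers were higher (0.26), and the part of these in the results below was not tested.

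The lysosomal genes were expressed at similar levels in both libraries, as were most genes. No member differed by 2-fold, and of all 7367 genes at the FPKM minimum below 0.57% did. FPKM, fragments per kilobase of transcript scaled to sequencing depth, summed to 2312 over the members in WT and 2381 in Prg4KO, and their expected counts made up 0.539% and 0.531% of the totals. The limit used for a difference was a log2 ratio of FPKM + 1, Prg4KO over WT, of at least 1 in size with an FPKM of at least 5 in the higher library. Of the 37 members 33 reached that FPKM, Ctss and Neu1 among them only through the Prg4KO library, while Ctsc, Idua, Manba and Sgsh stayed below it in both. The limit was passed by 0 members in either direction, and by 0.462% (higher), 0.109% (lower) and 0.57% (either) of all 7367 genes at that FPKM, or 34 higher and 8 lower. With the libraries brought to a common sum those became 16 higher and 18 lower, and 0 members passed. At a limit of 1.5-fold 2 members passed, Ctss and Ctsh, both higher, against 6.31% of those genes higher, 1.52% lower and 7.83% in either direction. Log2 ratios ran from -0.57 for Naglu to 0.79 for Ctss, and 24 of 37 lay within 0.25 of 0, where 56.2% of the 10933 genes with a mean FPKM of at least 1 lay. Within 0.5 of 0 were 33 of 37 members and 88.4% of those genes.

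Relative to the rest of the transcriptome the members lay low. FPKM was higher in the Prg4KO library for 15 members and lower for 22, whereas 68.8% of 10933 genes with a mean FPKM of at least 1 had a log2 ratio above 0. The median log2 ratio of the members was -0.05 and that of those 10933 genes was 0.14, so the members' median was -0.19 relative to all genes. Against the all-gene median 11 members lay above and 26 below. The scaling was compared with others because FPKM depends on the most abundant genes, and the type I and type III collagen genes Col1a1, Col1a2 and Col3a1 together made up 10.5% of the counts in WT and 5.88% in Prg4KO. After removal of a trend with length and GC content, 26 members lay below the all-gene median. Under 5 other scalings of the libraries 27 to 28 did. Each scaling multiplied the Prg4KO library by 1 factor, so members and all genes shifted together. Little but the pseudocount could change this count, which is therefore no check of it.

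**Figure D1:**
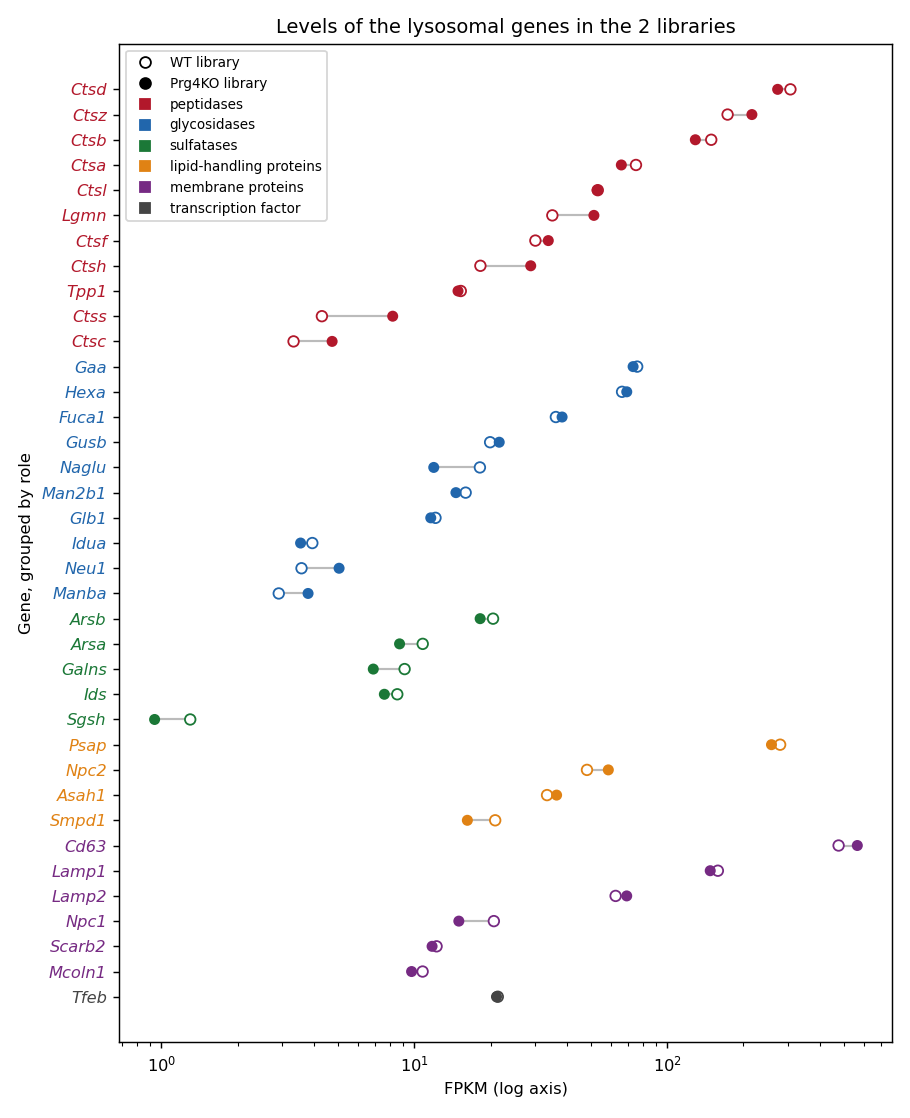
FPKM (log axis) of each of the 37 lysosomal genes in the WT library (open circles) and the Prg4KO library (filled circles), grouped and coloured by role, with 1 library per genotype and no error bars. Levels span from about 1 for Sgsh to 475 and 564 for Cd63, and most pairs of circles nearly coincide, with wider gaps for Ctss, Ctsh, Lgmn and Naglu.

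The members differed far more from each other in level than between the libraries. WT FPKM ranged from 1.30 for Sgsh to 475 for Cd63 with a median of 20.6, and the 5 most abundant members held 60.2% of the summed WT FPKM. Spearman's rho of FPKM between the libraries was 0.989 over the 37 members, which share library and depth. In the WT library 12 members stood among the top 10% of genes by FPKM.

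Cd63, a tetraspanin of late endosomes and lysosomes, was the most abundant member, with an FPKM of 475 (9206 counts) in WT and 564 (10823 counts) in Prg4KO. Its log2 ratio was 0.25, but after removal of the length and GC trend it was -0.07, and Cd63 was the shortest member at 918 bases. Ctsd, the main aspartic protease of lysosomes, had 307 (13084 counts) and 273 (11545 counts), a log2 ratio of -0.17. Psap encodes prosaposin, the precursor of the saposins that present sphingolipids to their hydrolases, and had 279 (15752 counts) and 258 (14448 counts), a log2 ratio of -0.11. These 3 genes ranked 148, 212 and 232 among WT genes by FPKM.

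The 4 highest log2 ratios of the whole list belonged to peptidases, by a narrow margin. The glycosidase gene Neu1 came next at 0.399 against 0.404 for Ctsc, and by count ratio Neu1 (1.41) exceeded Ctsc (1.37). After removal of the length and GC trend Neu1 was the highest of all members, at 0.48. Ctss encodes cathepsin S, a cysteine protease of antigen-presenting cells, and had 125 counts in WT and 236 in Prg4KO, at FPKM 4.31 and 8.21. The log2 ratio of 0.79 was equalled or exceeded by 1.46% of the 10933 genes. Per library total the count ratio of Ctss was 1.91, with a 95% interval of 1.53 to 2.39 that covers counting error only, as do all intervals below. Ctsh, a cysteine aminopeptidase, had 636 and 999 counts at FPKM 18.2 and 28.8 (log2 ratio 0.63), with a count ratio of 1.59 (1.44 to 1.76). Lgmn, the asparaginyl endopeptidase that processes other cathepsins, had 1532 and 2217 counts at FPKM 35.1 and 51.3 (log2 ratio 0.53), with a count ratio of 1.46 (1.37 to 1.56). Ctsc, the dipeptidyl peptidase that activates serine proteases of leukocytes, had 463 and 627 counts at FPKM 3.33 and 4.73 (log2 ratio 0.40), with a count ratio of 1.37 (1.21 to 1.55). These 4 genes were higher in the Prg4KO library under 5 other scalings and after removal of a length and GC trend, with Ctss at 0.46, Ctsh at 0.43, Lgmn at 0.38 and Ctsc at 0.23 in the last case.

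The other peptidases had smaller ratios in both directions, and over the 37 members Spearman's rho of the log2 ratio with log2 WT FPKM was 0.03. Ctsz, a cysteine carboxypeptidase, had an FPKM of 173 in WT and 216 in Prg4KO (log2 ratio 0.32). Ctsb, a cysteine protease with both endo- and exopeptidase activity, had 149 and 129 (-0.21). Ctsa, the carboxypeptidase that also stabilises beta-galactosidase and neuraminidase, had 75.2 and 65.8 (-0.19). The interval of the count ratio was 1.21 to 1.30 for Ctsz, apart from those of Ctsb (0.847 to 0.887) and Ctsa (0.844 to 0.913), which overlapped. Ctsl, a cysteine endopeptidase, was nearly level at 53.1 and 52.8, as was the tripeptidyl peptidase gene Tpp1 at 15.3 and 14.9. Ctsf had 30.1 and 33.8. Over the 11 peptidases the median log2 ratio was 0.16, near the 0.14 of all genes, with 6 above and 5 below the all-gene median.

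Macrophage markers were also higher in the Prg4KO library, and their part in the peptidase values was not tested. Of 17 macrophage markers, 16 had a log2 ratio above 0 and 14 lay above the all-gene median, with a range of -0.25 to 0.69 and none at 0 counts. Their FPKM summed to 149 in WT and 182 in Prg4KO. The macrophage receptor gene Csf1r had 554 and 720 counts at FPKM 6.57 and 8.62 (log2 ratio 0.35). Tyrobp, a myeloid signalling adaptor, had 95 and 159 counts at FPKM 7.87 and 13.3 (0.69), while Cd68, a macrophage membrane protein of lysosomes, had 21.1 and 25.6 (0.27) and Fcer1g 20.3 and 16.8 (-0.25). Mrc1 was at 3.10 and 3.41 (0.11). Removal of the length and GC trend left the macrophage list a median of 0.14 in place of 0.29. In libraries of pooled cells, a different number of cells of a type and a different amount of RNA per cell cannot be told apart. Of 9 paired osteoclast markers, 7 had a log2 ratio above 0 and 2 below. Against the all-gene median 4 of them lay above and 5 below. Mmp9 (14.1 and 56.9) and Acp5 (10.15 and 32.3) passed the 2-fold limit, Nfatc1 had 48.6 and 40.2, and Dcstamp had no listed WT value.

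Of other cell types the digests could hold, tendon and synovial fibroblast markers and mast cell markers were lower in the Prg4KO library. Endothelial markers lay on both sides of 0. The part of these cell types in the lysosomal values was not tested. Tendon and synovial fibroblast markers were lower in 5 of 5 cases (median log2 ratio -0.18, summed FPKM 423 and 402), from Tnmd, the most abundant, at 321 and 314 (-0.03) to Scx, a tendon transcription factor, at 21.2 and 15.0 (-0.47). Mast cell markers were lower in 4 of 4 cases (median -0.40, summed FPKM 10.02 and 6.48), none of them at an FPKM of 5. The 6 endothelial markers had a median of -0.04 and a range of -0.33 to 0.33, with 2 above 0 and 4 below. Pecam1 was the most abundant at 26.55 and 25.7, Emcn had 19.96 and 20.22 and the receptor gene Kdr was lowest at 5.28 and 3.99 (-0.33). The 2 paired neutrophil markers summed to an FPKM of 0.07 and 0.27. Among chondrocyte markers the matrix gene Matn3 passed the 2-fold limit at 168 and 377 (1.16) and Acan, the aggrecan gene, was lowest at 527 and 436 (-0.28), while Erg was the single superficial zone marker with a higher level, at 9.78 and 12.6 (0.34).

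**Figure D2:**
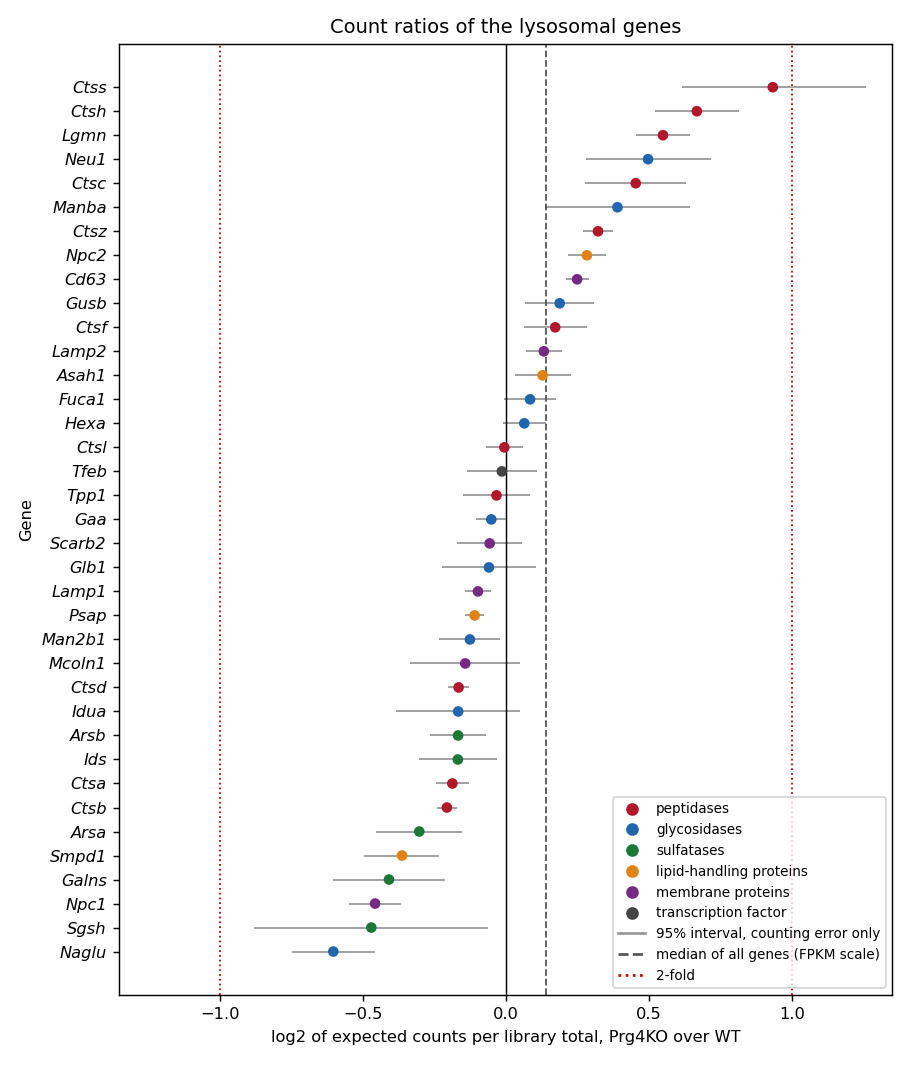
Log2 of the expected count per library total, Prg4KO over WT, for each lysosomal gene in order of the ratio, coloured by role, with bars for the 95% interval from counting error alone. The dashed line is the all-gene median of 0.14 on the FPKM scale and the dotted lines mark 2-fold; Ctss, Ctsh and Lgmn lie highest and Naglu lowest, and no point crosses a dotted line, though the interval of Ctss does.

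The 10 glycosidases had their largest difference in Naglu, the lowest of all members. Naglu encodes alpha-N-acetylglucosaminidase, which acts on heparan sulfate, and had 984 counts in WT and 641 in Prg4KO, at FPKM 18.2 and 11.9. The log2 ratio was -0.57, a value that 1.33% of the 10933 genes equalled or went below, and the count ratio was 0.658 (0.595 to 0.728). At the other end was Neu1, neuraminidase 1, with 300 and 419 counts at FPKM 3.58 and 5.04 (log2 ratio 0.40, count ratio 1.41, 1.21 to 1.64), a gene with expected counts that were not whole. Its log2 ratio was 0.48 after removal of the length and GC trend. The beta-mannosidase gene Manba also had a ratio above 0, from an FPKM of 2.91 and 3.80.

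The most abundant glycosidases were nearly level between the libraries. Gaa, which breaks down glycogen, had an FPKM of 76.0 in WT and 73.2 in Prg4KO, and Hexa, the alpha chain of beta-hexosaminidase, had 66.2 and 69.1. Fuca1, alpha-fucosidase, had 36.3 and 38.4, and the beta-glucuronidase gene Gusb had 19.9 and 21.65. The alpha-mannosidase gene Man2b1 had 15.95 and 14.6, Glb1 (beta-galactosidase, also used as a marker of senescent cells) had 12.1 and 11.6, and Idua, alpha-iduronidase, had 3.95 and 3.55. The small positive ratios of Hexa, Fuca1 and Gusb turned negative under each of the 5 other scalings of the libraries. The median log2 ratio of the glycosidases was 0.00, and 8 of these 10 genes lay under the all-gene median.

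All 5 sulfatase genes had a lower FPKM in the Prg4KO library. Tendon and synovial fibroblast markers (5 of 5) and mast cell markers (4 of 4, all below an FPKM of 5) were lower as well. So were 9 of 10 superficial zone markers and 4 of 6 endothelial markers. The part of these cells in the sulfatase values was not tested. Galns, which removes sulfate from keratan sulfate and chondroitin sulfate, had 507 and 378 counts at FPKM 9.15 and 6.88 (log2 ratio -0.37, count ratio 0.753, 0.658 to 0.863). Arsa, the sulfatase of myelin sulfatide, had an FPKM of 10.8 in WT and 8.74 in Prg4KO (-0.28). Sgsh, which removes N-linked sulfate from heparan sulfate, was the least abundant member with 123 and 87.7 counts at FPKM 1.30 and 0.94. The count ratio of Sgsh was 0.722 with a wide interval of 0.544 to 0.958. Arsb, which acts on dermatan and chondroitin sulfate, had 20.5 and 18.2 (-0.16), and the iduronate sulfatase gene Ids had 8.56 and 7.61 (-0.15). The sulfatases had a median log2 ratio of -0.25, and 5 of 5 were also lower after removal of the trend, at a median of -0.22. Under the 5 other scalings their medians ran from -0.33 to -0.31. Those scalings multiplied the Prg4KO library by 0.882 to 0.905, so a gene already lower could not turn, and they are no check of its sign.

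The 9 members that break down glycosaminoglycans, drawn from the glycosidases and sulfatases (Idua, Ids, Sgsh, Naglu, Gusb, Glb1, Hexa, Galns and Arsb), all lay below the all-gene median. Their median log2 ratio was -0.15, or -0.29 relative to all genes, and -0.17 relative to all genes after removal of the trend, where 9 of 9 again lay below. As deposited, 7 were lower in the Prg4KO library and Gusb and Hexa were higher. The other 28 members had a median of -0.01, or -0.15 relative to all genes. Outside the list, Hgsnat, the membrane acetyltransferase of the heparan sulfate chain, had 14.4 and 17.8 (0.29).

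The lipid-handling members lay on both sides. Smpd1, acid sphingomyelinase, had 1097 counts in WT and 844 in Prg4KO at FPKM 20.9 and 16.2 (log2 ratio -0.35, count ratio 0.778, 0.710 to 0.851). The acid ceramidase gene Asah1 had 1637 and 1770 counts (0.12), a ratio that turned negative under the other scalings and after removal of the trend. Npc2, the soluble cholesterol carrier of the lumen, had 48.1 and 58.45 (0.28). Its partner Npc1, counted here among the 6 membrane proteins, passes cholesterol out of the lysosome and had 2342 and 1688 counts at FPKM 20.6 and 15.0 (-0.44), with a count ratio of 0.728 (0.684 to 0.776). Npc1 and Npc2 thus had ratios of opposite sign. Both kept their sign after removal of the trend, and Npc2 also under the 5 other scalings. Those scalings lowered every Prg4KO value, so they could not turn the sign of Npc1.

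Of the other membrane proteins, Lamp1 and Lamp2, the heavily glycosylated proteins that line the lysosomal membrane, had ratios near 0. Lamp1 had an FPKM of 158 in WT and 148 in Prg4KO (log2 ratio -0.10), and Lamp2 had 62.5 and 69.1 (0.14, or -0.19 after removal of the trend). Scarb2, the sorting receptor of glucocerebrosidase, had 12.2 and 11.75, and Mcoln1, the calcium channel of the lysosomal membrane, had 10.8 and 9.75 (-0.13). The transcription factor gene Tfeb had 1089 and 1067 counts at FPKM 21.4 and 21.1, with a count ratio of 0.99 (0.909 to 1.08).

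Promoter windows of the members often held the E-box that TFEB and its relatives bind. RefSeq windows of GRCm38.p6, from 250 bases before to 50 after each start, were found for 32 of 37 members, and no window was found for Asah1, Ctsb, Ctsh, Galns and Npc1. The letters CACGTG, which read the same on both strands, stood in a window of 12 of 32 members (37.5%), against 8.09% of 27025 genes in the promoter table and 12.2% of the 8805 with a mean FPKM of at least 1. The longer form TCACGTG, searched on both strands and a part of the same hits, stood in 10 members (31.2%), against 7.18% of the expressed genes. For the CLEAR element, the longer TFEB consensus of 10 letters around the same core, only an exact match to every letter was counted. Such a match stood in 0 of 32 members and in 0.852% of the expressed genes. Sites that depart from the consensus at some letters were not searched for. The count of 0 therefore does not show that the members lack CLEAR elements. A match is a run of letters and no evidence of binding.

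The Lamp1 window is shown whole because it held the most matches of any member, 4 within the 61 bases before the start (chr8:13158911-13159210, plus strand, 5′ to 3′, CACGTG in capitals).
Lamp1: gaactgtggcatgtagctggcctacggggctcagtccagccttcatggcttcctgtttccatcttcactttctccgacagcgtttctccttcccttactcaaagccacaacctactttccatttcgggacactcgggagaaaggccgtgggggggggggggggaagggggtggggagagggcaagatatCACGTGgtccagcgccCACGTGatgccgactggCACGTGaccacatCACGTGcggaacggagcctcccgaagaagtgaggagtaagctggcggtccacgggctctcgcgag

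Sites of other members are shown with 10 bases on each side, on the strand of the gene, so that the members with the lowest and the highest ratios among the 12 (Naglu and Lgmn) can be read beside others, from Gaa at -0.05 to Arsa at -0.28; the last bases of 36 of the 37 windows stood in a transcript of the same gene.
Naglu, chr11:101070011-101070036, plus strand, 73 bases before the start: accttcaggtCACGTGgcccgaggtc
Lgmn, chr12:102439126-102439151, minus strand, 49 bases before the start: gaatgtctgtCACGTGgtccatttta
Gaa, chr11:119267813-119267838, plus strand, 140 bases before the start: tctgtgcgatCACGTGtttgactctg
Glb1, chr9:114401020-114401045, plus strand, 48 bases before the start: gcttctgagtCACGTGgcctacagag
Mcoln1, chr8:3500438-3500463, plus strand, 71 bases before the start: tcgcgcttgtCACGTGttcagttcag
Mcoln1, chr8:3500464-3500489, plus strand, 45 bases before the start: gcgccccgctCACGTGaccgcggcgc
Ctsd, chr7:142387910-142387935, minus strand, 98 bases before the start: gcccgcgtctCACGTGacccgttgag
Ctsa, chr2:164833751-164833776, plus strand, 12 bases before the start: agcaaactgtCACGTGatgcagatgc
Arsa, chr15:89477425-89477450, minus strand, 16 bases before the start: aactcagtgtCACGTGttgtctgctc

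Of the 12 members with CACGTG, 10 were lower and 2 (Lgmn and Ctsf) were higher in the Prg4KO library, with a median log2 ratio of -0.12 and a range of -0.57 to 0.53. The 20 members whose windows lacked it, 11 higher and 9 lower, had a median of 0.07 and a range of -0.35 to 0.79, and included Ctss and Ctsc. Of the 5 members with no window 2 were higher and 3 lower, and of all 37 members 15 were higher and 22 lower. Among all genes with a mean FPKM of at least 1, 68.8% had a log2 ratio above 0. The ranges with and without CACGTG overlapped over most of their length, and a part of the motif in these ratios was not tested.

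Other lysosomal genes outside the list also had mostly small ratios. Of 39 further hydrolases and cofactors 37 were paired, with a median log2 ratio of 0.03 (-0.11 relative to all genes). The limit was passed by 1 of the 30 that reached an FPKM of 5, and by 0.57% of all 7367 genes at that FPKM. The gene was Acp5, the tartrate-resistant acid phosphatase also listed as an osteoclast marker. Ctsk, the collagen-cleaving cathepsin and the most abundant gene of that list, was nearly level with 4762 and 4825 counts at FPKM 140.2 and 143 (0.03). The lowest at an FPKM of 5 or more was the serine carboxypeptidase gene Scpep1, at 106 and 78.3 (-0.44). Of the 31 paired genes among further membrane proteins, 20 reached an FPKM of 5 and 0 of those passed the limit, with a median of 0.11. Among those 20, Laptm4a was the most abundant at 305 and 334, Mfsd1 the highest at 7.37 and 10.8 (0.49), and the endolysosomal channel gene Tpcn1 the lowest at 28.2 and 20.3 (-0.46).

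The proton pump that acidifies lysosomes had a higher median than the hydrolases. Of 22 v-ATPase subunit and accessory genes 21 were paired, and 17 had a higher FPKM in the Prg4KO library. Of all genes with a mean FPKM of at least 1, 68.8% had a log2 ratio above 0. Against the all-gene median 14 of the 21 lay above and 7 below. The median log2 ratio was 0.28 (0.14 relative to all genes). Of the 17 v-ATPase genes that reached an FPKM of 5, 0 passed the limit, against 0.57% of all genes at that FPKM. The membrane subunit gene Atp6v0c was the most abundant at 381 and 324 (-0.24), Atp6v1g1 was the highest of those at an FPKM of 5 or more, at 47.3 and 66.1 (0.47), and Atp6v0a1 was the lowest at 16.4 and 11.25 (-0.51). These transcripts were short, with a median length of 1849 bases against 2605 for the members, and after removal of the length and GC trend the v-ATPase median was -0.01.

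Genes of sorting, nutrient sensing and autophagy had 0 members past the limit in each list. An FPKM of 5 was reached by 13, 16 and 25 of their genes. Of all 7367 genes at that FPKM 0.57% passed, so a count of 0 in lists of this size is near the all-gene share. For mannose 6-phosphate sorting the median log2 ratio over 16 genes was 0.09, with the receptor genes Igf2r at 28.7 and 21.6 (-0.39) and M6pr at 24.8 and 30.1 (0.27). Lman1 was the most abundant of that list at 50.6 and 54.0 (0.09), and the sorting receptor gene Sort1 had the highest ratio at 4.39 and 5.51 (0.27). The MiT/TFE and nutrient sensing list of 23 genes had a median of 0.18. Tfe3, a relative of Tfeb, had 36.0 and 35.5, the Ragulator gene Lamtor5 was the highest at 22.1 and 29.5 (0.40), Tsc2 the lowest at 11.5 and 9.97 (-0.18) and Rheb, the activator of mTORC1, the most abundant at 48.5 and 59.05. Over 28 autophagy genes the median was 0.11, with the cargo receptor gene Sqstm1, the most abundant, at 477 and 484 (0.02). Atg9a was the lowest at 17.6 and 12.8 (-0.43) and Atg16l1 the highest at 7.08 and 9.45 (0.37).

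**Figure D3:**
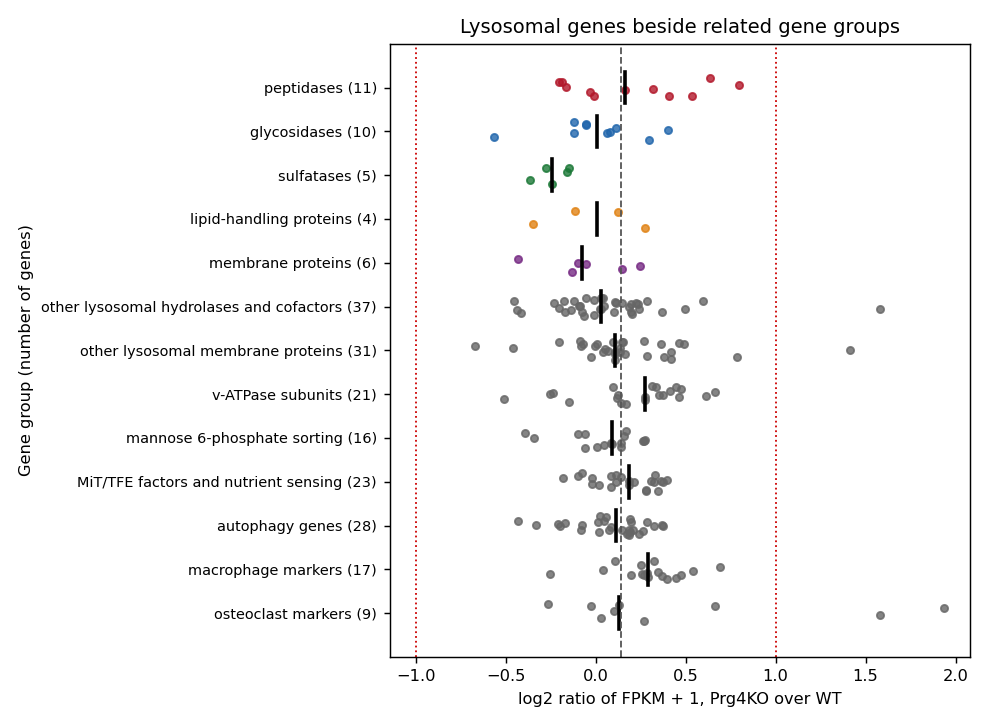
Log2 ratio of FPKM + 1, Prg4KO over WT, of each gene (points) by group, with the group median as a black bar, the all-gene median of 0.14 dashed and 2-fold dotted; the number of genes stands beside each name. The sulfatases have the lowest median at -0.25 and the v-ATPase subunits and macrophage markers the highest at 0.28 and 0.29, and 4 points lie past a dotted line: Acp5, shown in 2 groups, Mmp9 and Mcoln3, which stayed below an FPKM of 5.

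Transcript length and base composition moved with the ratios among the members as they did over all genes. Spearman's rho of the log2 ratio with length was -0.37 over the 37 members and -0.28 over the 10933 genes, and with GC content it was -0.30 over the members and -0.32 over 10896 genes. The members had a median length of 2605 bases and a median GC content of 53.3%, against 2810 bases and 50.9% over all genes. A quadratic trend in both properties held 24.2% of the variance of the log2 ratios. With this trend removed, the members' median was -0.17 relative to all genes.

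**Figure D4:**
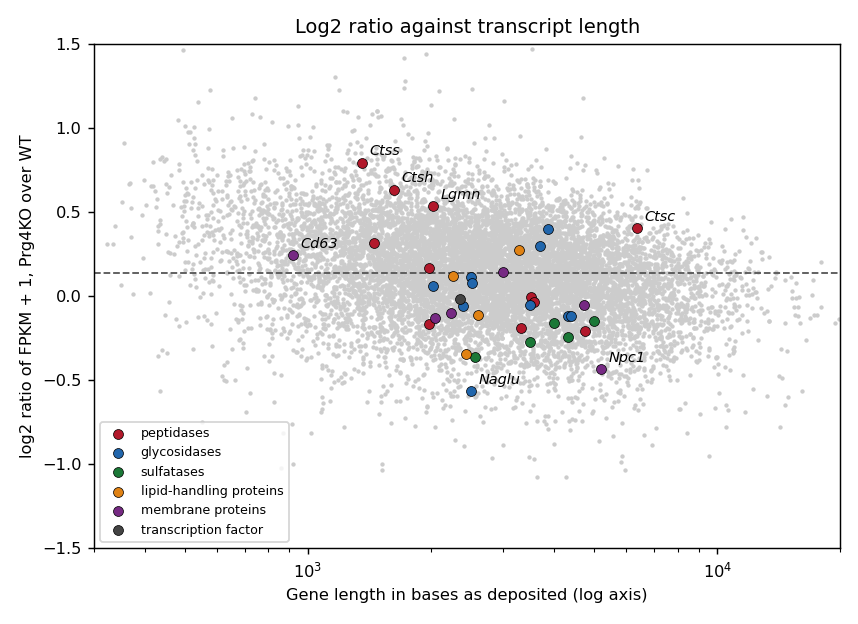
Log2 ratio of FPKM + 1, Prg4KO over WT, against deposited gene length (log axis) for the lysosomal genes (coloured by role) over all 10933 genes with a mean FPKM of at least 1 (grey, 9 of them outside the vertical range), with the all-gene median dashed. Grey points slope down with length (rho -0.28), Cd63 is the shortest member, and Ctsc lies above and Naglu below the median at lengths where most genes lie closer to it.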

How the data were processed

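Polyadenylated RNA was sequenced from 1 WT and 1 Prg4KO library. The deposited values were expected counts and FPKM per gene, per the file headers, with a gene length in bases. RSEM, HISAT2, Bowtie2 and the build mm10 appear in the submitters' processing notes, without versions or roles. Genes at 0 were not listed. Expected counts were whole in both libraries for 25 members, and the others may share reads with similar genes.

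The table held 15973 Prg4KO rows, 254 of them beside no gene. They were re-paired by a pair hidden Markov model with 3 states, as ordered subsets of the gene list, using count divided by FPKM as effective length (deposited length less a constant). A partner was missing with a probability of 0.002 plus 0.4 near a count of 0. Pairs at 0.95 or more (14975 genes, 95.3%) were used, and these held 6840 of 6840 genes at a WT FPKM of 5 or more. The pairing was tested on simulated data.

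Log2 ratios used FPKM with a pseudocount of 1, which understates the differences of low genes. Intervals are exact binomial at 95%, conditional on the summed count. TMM factors came from edgeR 4.0.16 (R 4.3.3) on rounded counts, the rest from Python 3.11.15, numpy 2.4.6 and scipy 1.17.1. GC content came from GENCODE transcripts matched by RefSeq accession. Every member is named. From each further list the genes past the limit, the most abundant and the highest and lowest ratios at an FPKM of 5 or more are named; Hgsnat, Csf1r, Mrc1, M6pr, Tfe3 and Dcstamp were added for their roles after values were seen. Members and lists were chosen with earlier results of these data known.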

Additional observations from a re-analysis of the deposited data

How the results depend on the processing

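The count of members past the limit was 0 under every alternative that kept the 37 members except a 1.5-fold limit, at which 2 (Ctss and Ctsh, both higher) passed, against 6.31% higher and 1.52% lower of 7367 genes. The members' median log2 ratio of -0.05 became -0.19 with a common sum, -0.19 with a common median, -0.20 with a common upper quartile, -0.22 with a common sum without the 20 most abundant genes, -0.21 with TMM factors and -0.15 after removal of the length and GC trend. Relative to all genes the median of -0.19 was -0.22 at a pseudocount of 0.1 and -0.13 at 5, -0.21 under each of those 5 scalings and -0.17 after removal of the trend. A scaling by 1 factor shifts all genes alike, so the relative median under those 5 scalings could hardly differ and is no separate check. Over all genes past the 2-fold limit, 34 higher and 8 lower became 16 and 18 with a common sum and 10 and 8 after removal of the trend. The pairing alternatives, the FPKM minimum, counts in place of FPKM and leaving out Ctss, Ctsc, Ctsh and Lgmn changed the medians little. The members' median stayed from -0.0572 to -0.0506, and from -0.1966 to -0.1913 relative to all genes. With all 367 paired genes of the deposited lysosome terms, an alternative added after seeing the data, 1 gene passed, the median was 0.11 and the median relative to all genes was -0.0339. Of 37 members, 28 kept their sign under the 5 scalings and the trend removal, 8 higher and 20 lower. The 5 scalings multiplied the Prg4KO library by 0.882 to 0.905, so they could turn higher members only. The split into 8 and 20 is therefore no check of a lean to lower values. No paired analysis was possible because each genotype had 1 library, and depth limits Sgsh, Ctss and Manba most.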

Other observations

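The deposited annotation gave a cellular component term naming the lysosome to 372 genes, 34 of the 37 members among them (Ctsl, Naglu and Tfeb were the exceptions). Of these 372 genes 367 were paired, and 238 reached an FPKM of 5 in at least 1 library. Acp5 was the single gene of that annotation past the 2-fold limit. Leaving the members out, the remaining 333 paired genes had a median log2 ratio of 0.11, against -0.05 for the members and 0.14 for all genes.

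Low transcripts outside the limits, named after their values were seen, had the highest ratios among further lysosomal membrane proteins. Mcoln3, a relative of the channel gene Mcoln1, had 23 counts in WT and 121 in Prg4KO at FPKM 0.62 and 3.32 (count ratio 5.32, 3.38 to 8.70). Slc17a5, which exports sialic acid from lysosomes, had 147 and 303 counts at FPKM 2.10 and 4.34 (count ratio 2.08, 1.71 to 2.55). Both stayed below an FPKM of 5 in each library.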
